A study of Mus musculus with 27 samples.

Results

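Transcripts of 10 genes of the Notch pathway were followed in mK4 cells and in the lines derived from them that lack Runx1 or both Zeb1 and Zeb2. The genes were chosen by symbol in the deposited expression table, and all 10 of the symbols were among its 24953 rows. They comprise 3 receptors (Notch1, Notch2, Notch3), 3 ligands (Jag1, Jag2, Dll1) and 4 genes of the Hes/Hey family (Hes1, Hey1, Hey2, Heyl).

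mK4 is a cell line from mouse metanephric mesenchyme, the kidney tissue that turns into nephron epithelium. Control cells were parental mK4 without an engineered deletion. Runx1KO cells carried a CRISPR deletion of Runx1 exon 3, and ZebDKO cells carried CRISPR deletions of Zeb1 exon 2 and Zeb2 exon 1 in the same parental line. All were grown in medium with 10% FBS and collected at confluency by the labels or shortly before it by the study's methods, and poly(A) RNA was sequenced from 3 replicates of each genotype. The edited lines were grown from picked clones, and the sources used here do not say how many clones were sequenced, so that the effect of a clone and of its genotype cannot be told apart.

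Notch receptors are single-pass membrane proteins that are activated by ligands of the Jagged and Delta-like families on a neighbouring cell. Ligand binding lets ADAM proteases and then γ-secretase cut the receptor, and the released intracellular domain joins Rbpj, a DNA-binding protein, to turn on genes such as Hes1 and the Hey genes, which encode transcriptional repressors. In the developing kidney, Notch signals are known for their part in forming the proximal segments of the nephron.

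Levels are given as TPM, transcript abundances that are scaled to gene length and to the total of each library and can therefore be compared between genes. The deposited TPM values carry 1 decimal and sum to between 999985 and 999998 per library. The study's methods give a lower bound on the reads per sample, but the number behind each library cannot be recovered from TPM. Each library had between 12541 and 12697 genes at 1 TPM or more. Of markers set for the cell types such a culture could hold, 6 of 7 mesenchyme genes were detected, with summed levels of 3080 to 3210 TPM in control, 2950 to 3010 TPM in Runx1KO and 2360 to 2400 TPM in ZebDKO libraries. Of 11 nephron progenitor genes 6 were detected, with sums of 671 to 682 TPM in control, 716 to 785 TPM in Runx1KO and 616 to 646 TPM in ZebDKO libraries, and the defining markers Six2 and Cited1 were not among them. A sum follows its most abundant genes and can hide genes of a list that move the other way. The detected progenitor genes include Gdnf and Osr1, which the study reports as downregulated in Runx1KO cells. The largest shift was in the epithelial markers, of which 7 of 8 were detected and Cdh1 was not. They summed to 18.6 to 21.5 TPM in control, 2940 to 3030 TPM in Runx1KO and 1330 to 1400 TPM in ZebDKO libraries. Endothelial markers summed to at most 5.8 TPM and leukocyte markers to at most 3.2 TPM in any library. Renal stroma markers, 2 of 4 detected, summed to 144 to 156 TPM in control, 92.4 to 97.3 TPM in Runx1KO and 82.2 to 86 TPM in ZebDKO libraries, without overlap between control and the edited lines.

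The targeted genes give a limited check of the labels, because a gene's TPM sums over all its exons and the deletions remove 1 exon each. Runx1 stood at 18.7, 15.6 and 17.9 TPM in control libraries and at 30.3, 30.1 and 28.5 TPM in Runx1KO libraries, so its level does not show the deletion. Zeb1 likewise stood at 16.8, 16.6 and 14.8 TPM in ZebDKO libraries against 15.1, 14.2 and 15.6 TPM in controls. Zeb2 fell from 5.5, 4.9 and 5.2 TPM in controls to 1.7, 1.8 and 1.6 TPM in ZebDKO. In Runx1KO libraries both Zeb genes were nearly silent, with Zeb1 at 0.1 to 0.2 TPM and Zeb2 at 0.2 TPM in each library. The study itself checked the deletions of the exons by PCR. Its Western blots showed loss of Runx1 protein in Runx1KO cells and of Zeb1 protein in ZebDKO cells, while Zeb2 protein could not be measured.

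The receptors were led by Notch2 in every library, followed by Notch1 and, far below, Notch3. Notch2 stood at 75.0, 68.1 and 74.9 TPM in control libraries, at 50.4, 50.2 and 47.7 TPM in Runx1KO libraries and at 62.6, 68.5 and 60.8 TPM in ZebDKO libraries. Runx1KO values were below all others, whereas control and ZebDKO values overlapped. Notch1 stood at 34.1, 29.4 and 35.2 TPM in control, at 16.8, 17.4 and 15.5 TPM in Runx1KO and at 27.5, 30.9 and 27 TPM in ZebDKO libraries. Again the Runx1KO libraries stood alone at the bottom, and control and ZebDKO ranges overlapped. Notch3, the receptor best known from pericytes and vascular smooth muscle, was listed at 2.6 TPM in each control library, at 0.6, 0.5 and 0.4 TPM in Runx1KO and at 0.7, 1.1 and 0.8 TPM in ZebDKO libraries. Both edited lines were below the controls without overlap, and at this level a step of the deposited values is 0.1 TPM. Pericyte and smooth muscle markers, of which 2 of 5 were detected and Rgs5 and Cspg4 were listed at 0 throughout, summed to 11.1 to 12.1 TPM in control, 1.3 to 1.5 TPM in Runx1KO and 22.8 to 24.6 TPM in ZebDKO libraries, and their part in the Notch3 values was not tested.

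Among the ligands the order of levels differed between the genotypes. Jag1, a Jagged ligand required in many organs, was the leading ligand of control cells at 4.0, 3.3 and 3.8 TPM, and stood at 8.6, 8.6 and 7.7 TPM in Runx1KO and at 9.4, 10.5 and 10.3 TPM in ZebDKO libraries. Jag2, its close relative, stood at 0.7, 1.0 and 0.6 TPM in control, at 3.3, 4.2 and 4.1 TPM in Runx1KO and at 4.9, 4.1 and 4.2 TPM in ZebDKO libraries. The edited lines lay above the controls for both Jagged genes, and for Jag2 they overlapped each other. Dll1, a Delta-like ligand, was at 0.8, 0.3 and 0.9 TPM in control, at 21.4, 19.7 and 20.3 TPM in Runx1KO and at 8.6, 8.3 and 9.5 TPM in ZebDKO libraries. Its ranges were separate in all 3 genotypes. Dll1 led the ligands in Runx1KO cells, where the lowest Dll1 value lay above the highest Jag1 value. In ZebDKO cells Jag1 and Dll1 were closer together, and the highest Dll1 value passed the lowest Jag1 value.

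Hes1, the Hes repressor most widely used as a readout of Notch activity and also induced by other signals, exceeded the other 9 genes by far. It stood at 313.4, 278.8 and 324.0 TPM in control, at 396.7, 390.5 and 427.4 TPM in Runx1KO and at 750.0, 797.8 and 896.8 TPM in ZebDKO libraries. The 3 ranges did not overlap, and the highest lay in ZebDKO cells. The Hey genes were at the lower end of what the table lists. Hey1 stood at 0.3, 0.6 and 0.3 TPM in control, at 0.3, 0 and 0.2 TPM in Runx1KO and at 0.2, 0.3 and 0.1 TPM in ZebDKO libraries. Hey2 stood at 1.0, 0.5 and 1.0 TPM in control, at 0.1, 0.4 and 0.3 TPM in Runx1KO and at 0.3, 0.8 and 0.6 TPM in ZebDKO libraries. Heyl was listed at 0, 0 and 0.1 TPM in control, at 0.2, 0.1 and 0.3 TPM in Runx1KO and at 0.1 TPM in each ZebDKO library. None of the 3 Hey genes reached the minimum of 1 TPM in 3 libraries that a gene needed to be tested, and no order of their levels can be read at these values.

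**Figure D1:**
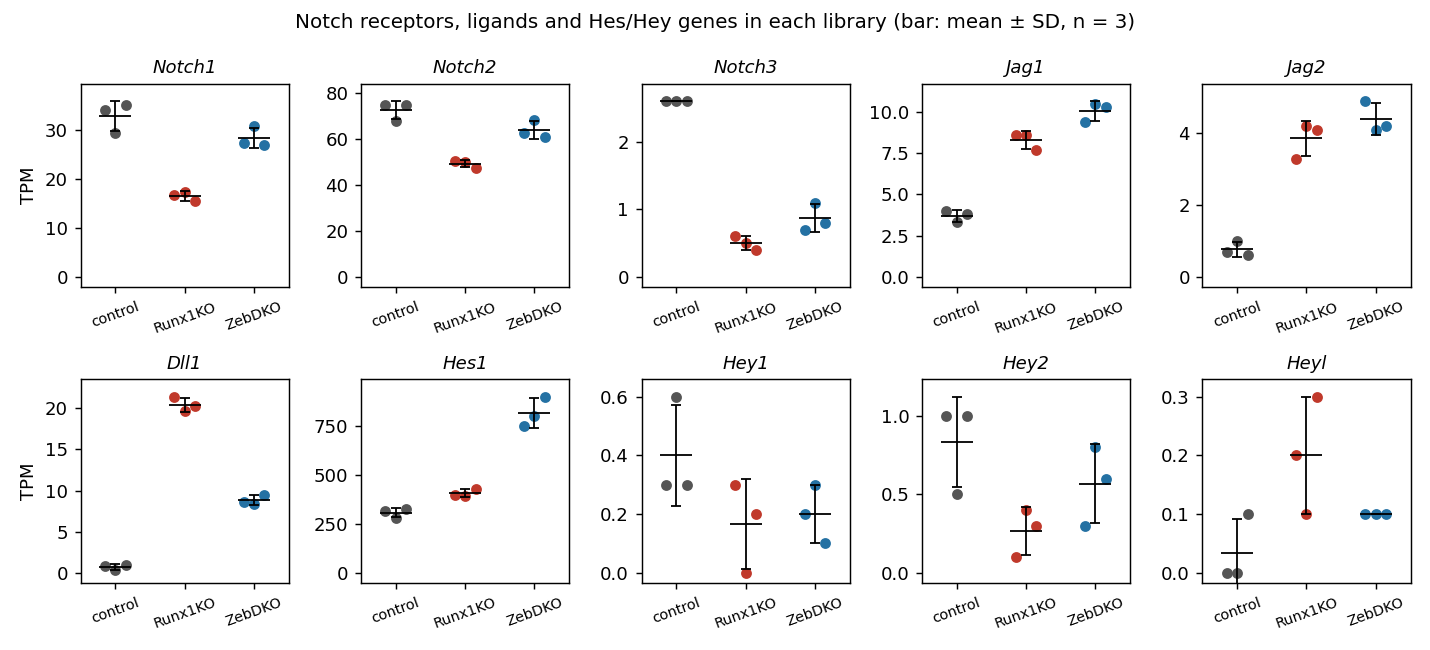
TPM of each member (vertical axis, a separate scale in each panel) in the 3 control, 3 Runx1KO and 3 ZebDKO libraries. Points are libraries, and bars give the mean and SD; Dll1 runs from 0.3 to 0.9 TPM in control to 19.7 to 21.4 TPM in Runx1KO libraries, and Hes1 is highest in the ZebDKO libraries at 750.0 to 896.8 TPM.

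In Runx1KO cells Notch3 was called lower than in control cells and Dll1 and Jag2 higher, while the differences of Notch1, Notch2, Jag1 and Hes1 stayed inside the limit used. To test what loss of Runx1 changed, Runx1KO libraries were compared with control libraries by limma on log2(TPM + 1), and a gene was called when it differed by over 2-fold with an adjusted p-value below 0.05. The limit applies to this scale, which understates the change in TPM, most of all for genes near or below 1 TPM. Of the 10 members 7 passed the filter, and 2 were called higher and 1 lower, where 7.91% of all 13067 genes tested were called higher and 5.10% lower. All 7 had an adjusted p-value below 0.05, as did 70.5% of all genes tested, so that passing this threshold alone sets no member apart. Dll1, Jag2 and Notch3 met the filter through the libraries of 1 genotype, apart from control replicate 2 of Jag2 at 1.0 TPM, and a gene that enters this way has to differ.

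Dll1 rose by 3.71 on the log2(TPM + 1) scale (SE 0.14, 95% interval 3.37 to 4.04, adjusted p = 7.6e-07), and its mean TPM was 30.7 times that of controls. It ranked 114th in size among the genes that were higher. Jag2 rose by 1.46 (SE 0.12, adjusted p = 3.6e-05), with a mean of 3.87 ± 0.493 TPM against 0.767 ± 0.208 TPM (SD, n = 3 each). Jag1 had a difference of 0.99 (SE 0.079, 95% interval 0.80 to 1.17, adjusted p = 3.2e-05), which lies just inside the 2-fold limit on this scale. The mean TPM of Jag1 was 2.24 times that of controls. Without Runx1KO replicate 3, control replicate 1 or control replicate 3 its difference was 1.03, 1.03 and 1, and it was called. Dll1 could not be tested without any 1 of the Runx1KO libraries, since only the other two then reached 1 TPM.

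Notch3 fell by 1.27 (SE 0.085, adjusted p = 1.3e-05), from a mean of 2.6 to 0.5 TPM. In a second deposited TPM table of the same 6 libraries, where the control mean of Notch3 is 1.23 TPM, its difference was -0.85 and it was not called. Without any 1 of the control libraries Notch3 did not pass the filter. Notch1 had a difference of -0.95 (SE 0.076, 95% interval -1.13 to -0.77, adjusted p = 3.3e-05), a mean of 16.6 ± 0.971 TPM against 32.9 ± 3.08 TPM (SD, n = 3 each). Without control replicate 2 its difference was -1.02 and it was called. Notch2 had a difference of -0.55 (SE 0.047, adjusted p = 4.7e-05), and Hes1 one of 0.41 (SE 0.062, adjusted p = 0.00084), both well inside the 2-fold limit. By RT-qPCR the study found no difference of Hes1 in Runx1KO cells, where it served as an unrelated gene. In cultured bulk samples, fewer cells that express a gene and less of its RNA per cell cannot be told apart. The epithelial markers were higher and the renal stroma markers lower in the same libraries in which the ligands were higher, and their part in these differences was not tested.

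In ZebDKO cells the ligands and Hes1 were higher than in control cells, while Notch1 and Notch2 differed by about as much as the median gene. In ZebDKO against control libraries, 7 members passed the filter and 4 were called higher, where 7.50% of 12974 genes tested were called higher and 7.28% lower. No member was called lower by limma, and 3 had a lower value with an unadjusted p-value below 0.05, as did 53.2% of all genes. Dll1 met the filter here through the ZebDKO libraries alone, and Jag2 through them and control replicate 2, so that both had to differ. At an adjusted p-value below 0.05 alone 6 members passed, as did 79.4% of all genes. The median difference of all genes tested was -0.18 here and -0.06 in the comparison of Runx1KO with control, and it was 0 after median-ratio scaling, which brought the share of higher among all called genes from 50.8% to 64.0%.

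Dll1 rose by 2.57 (SE 0.15, 95% interval 2.22 to 2.92, adjusted p = 3.7e-06), and Jag2 by 1.62 (SE 0.11, adjusted p = 9e-06). Jag1 rose by 1.24 (SE 0.079, adjusted p = 5.9e-06), and its mean TPM was 2.72 times that of controls. Hes1 rose by 1.41 (SE 0.078, 95% interval 1.23 to 1.59, adjusted p = 3e-06), to 2.67 times its mean in controls. Without any 1 of the ZebDKO libraries Dll1 did not pass the filter. Among the receptors, Notch3 had a difference of -0.95 (SE 0.10, adjusted p = 8.1e-05), with a mean TPM 0.333 times that of controls. It met the filter through the control libraries, apart from ZebDKO replicate 2 at 1.1 TPM, and a gene that enters this way has to differ. Without that replicate it entered through the controls alone and was called at -1.04. Notch2 had a difference of -0.18 (adjusted p = 0.022), equal to the median of all genes, and after median-ratio scaling it turned to 0.01. Notch1 had a difference of -0.20 (95% interval -0.39 to -0.01, adjusted p = 0.051).

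Runx1KO and ZebDKO effects rest on the same 3 control libraries, so the edited lines were also compared with each other, which tests whether a gene differs between them. In this comparison 6 members passed the filter, and Dll1 was called higher and Hes1 lower in Runx1KO cells, where 9.20% of 13071 genes tested were called higher and 6.59% lower. An adjusted p-value below 0.05 was reached by 5 members and by 80.0% of all genes. Of all called genes, 58.3% were higher in Runx1KO; this share was 46.4% after median-ratio scaling and 46.6% after quantile normalization, and the median difference of all genes was 0.15.

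Dll1 was higher in Runx1KO than in ZebDKO cells by 1.13 (SE 0.061, 95% interval 0.99 to 1.28, adjusted p = 2.3e-06), and relative to the median gene by 0.98. Median-ratio scaling gave 0.99 and quantile normalization 0.90, both inside the 2-fold limit. Hes1 was lower in Runx1KO cells by a difference of -1 (SE 0.067, 95% interval -1.16 to -0.85, adjusted p = 6.9e-06), and relative to the median gene by -1.15. This difference sits on the limit: it was -0.99 without Runx1KO replicate 1, -0.98 without Runx1KO replicate 2, -0.93 without ZebDKO replicate 3 and -0.93 after quantile normalization, and was then not called. Notch1 had a difference of -0.75 (SE 0.066, adjusted p = 2.9e-05) and Notch2 one of -0.36 (SE 0.050, adjusted p = 0.00034), without overlap between the lines. Jag1 differed by -0.25 (adjusted p = 0.0089). For Jag2 no difference between the lines was found at -0.15 (95% interval -0.39 to 0.08, adjusted p = 0.19). Notch3 was below the filter in this comparison.

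**Figure D2:**
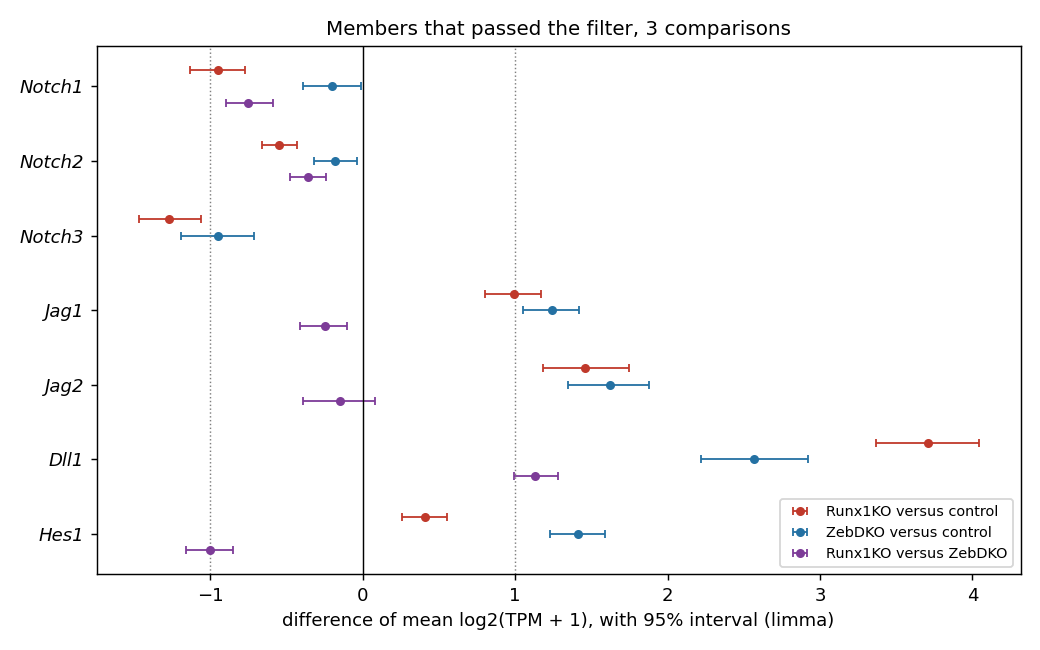
Difference of mean log2(TPM + 1) with its 95% interval from limma (horizontal axis) for the members that passed the filter, in 3 comparisons of 3 against 3 libraries; dotted lines mark the 2-fold limit. Dll1 lies at 3.71 and 2.57 against control, and Hes1 at 0.41 in Runx1KO and 1.41 in ZebDKO cells.

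Ligand transcripts were more abundant relative to receptor transcripts in both edited lines. Summed over the 3 receptors, levels were 111.7, 100.1 and 112.7 TPM in control, 67.8, 68.1 and 63.6 TPM in Runx1KO and 90.8, 100.5 and 88.6 TPM in ZebDKO libraries. Control and ZebDKO sums overlapped, and the Runx1KO sums were below both. Summed over the 3 ligands, levels were 5.5, 4.6 and 5.3 TPM in control, 33.3, 32.5 and 32.1 TPM in Runx1KO and 22.9, 22.9 and 24.0 TPM in ZebDKO libraries. Ligand transcripts thus amounted to 4.6% to 4.92% of receptor transcripts in control, 47.7% to 50.5% in Runx1KO and 22.8% to 27.1% in ZebDKO libraries. The share of Dll1 in the ligand sum was 6.52% to 17.0% in control, 60.6% to 64.3% in Runx1KO and 36.2% to 39.6% in ZebDKO libraries. Notch2 made up 66.5% to 68.0% of the receptor sum in control, 73.7% to 75.0% in Runx1KO and 68.2% to 68.9% in ZebDKO libraries. These sums describe the chosen members and were not tested.

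**Figure D3:**
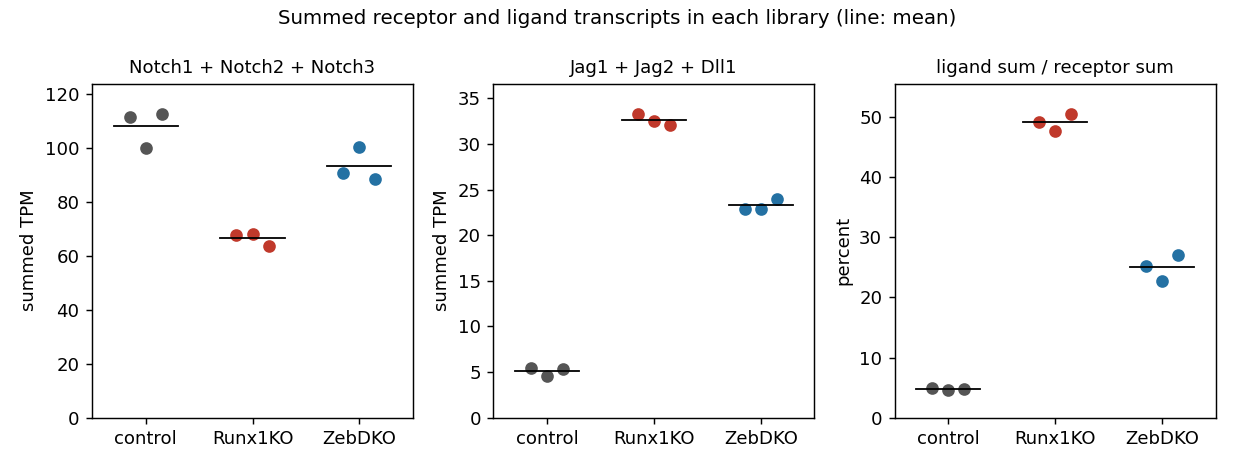
Summed TPM of the 3 receptors (left) and the 3 ligands (middle) and the ligand sum as a percent of the receptor sum (right), with a point for each library and a line at the group mean. Ligand sums lie at 4.6 to 5.5 TPM in control, 32.1 to 33.3 TPM in Runx1KO and 22.9 to 24.0 TPM in ZebDKO libraries.

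The rest of the pathway was read from lists of its other receptors and ligands, of receptor processing, of the nuclear complex and of trafficking and turnover. Of the 12 other receptors, ligands and Hes genes, 5 passed the filter in Runx1KO against control; Dll4 and Notch4 were called higher and Dlk2 lower, beside the 7.91% and 5.10% of all genes given above. Notch4 in Runx1KO and Dll4 in both edited lines met the filter only through the edited libraries, so that they had to differ and their p-values carry no weight of their own. The median of the 5 differences was -0.22 beside -0.06 for all genes. Notch4, a receptor known from endothelium, rose by 1.46 (adjusted p = 1.2e-05), from 0.3 to 0.4 TPM in controls to 2.4 to 3.0 TPM in Runx1KO. Dll4, the Delta-like ligand of sprouting vessels, rose by 1.2 in Runx1KO (adjusted p = 2e-04) and by 1.70 in ZebDKO (adjusted p = 5.4e-06), where it was the single called gene among 4 tested. In that comparison 7.50% of all genes were called higher. Endothelial markers summed to 2.9 to 4.6 TPM in control, 1.0 to 1.3 TPM in Runx1KO and 3.6 to 5.8 TPM in ZebDKO libraries, and 1 of the 5, Cdh5, was detected. Dlk2, a Delta-like relative that lacks the domain used to activate receptors, fell by 1.11 in Runx1KO (adjusted p = 0.00012) and differed by -0.13 in ZebDKO (adjusted p = 0.34).

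Of the 19 receptor processing genes, 18 passed the filter in each comparison. In Runx1KO against control 1 was called higher and 1 lower, with a median of 0.01, and in ZebDKO against control 2 were called higher and 0 lower, with a median of -0.06 beside -0.18 for all genes. These counts of 18 are near the shares of all genes called, 7.91% higher and 5.10% lower in Runx1KO and 7.50% and 7.28% in ZebDKO. In ZebDKO 4 had a higher and 7 a lower value with an unadjusted p-value below 0.05, beside 27.5% and 53.2% of all genes. Gxylt2, a xylosyltransferase that extends the O-glucose on the EGF repeats of Notch, was at 57.6, 53.2 and 55.8 TPM in control, at 54.0, 55.9 and 52.6 TPM in ZebDKO and at 0.3, 0.2 and 0 TPM in Runx1KO libraries. It fell by 5.61 in Runx1KO (adjusted p = 2.2e-08), the 3rd largest fall of all genes tested, and in ZebDKO it differed from control by -0.03 (95% interval -0.14 to 0.07, adjusted p = 0.47). Aph1c, a γ-secretase subunit, rose by 1.79 in Runx1KO (adjusted p = 1.3e-06) and by 1.16 in ZebDKO (adjusted p = 1.6e-05). It stood at 0.8 to 0.9 TPM in control libraries and thus met the filter only through the edited lines. Aph1b, its near-identical copy, differed by 0.37 and -0.65, and between the edited lines by 1.02 (adjusted p = 2e-06), or 0.87 relative to the median gene, and reads shared by the copies make both values uncertain. Psen2, a catalytic subunit of γ-secretase, rose by 1.34 in ZebDKO (adjusted p = 8.9e-06) and had a difference of 0.72 in Runx1KO (adjusted p = 0.00057).

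Rbpj, the DNA-binding partner of all Notch receptors, was the single called gene among 16 tested of the nuclear complex in Runx1KO. Of all genes 7.91% were called higher and 5.10% lower there, so that this count does not set the list apart. Rbpj stood at 35.0, 32.5 and 33.5 TPM in control, at 15.7, 15 and 15.6 TPM in Runx1KO and at 29.2, 32.0 and 29.5 TPM in ZebDKO libraries. The fall of 1.08 in Runx1KO (SE 0.042, adjusted p = 8.2e-07) compares with a difference of -0.15 in ZebDKO (adjusted p = 0.026), which is above the median gene. Between the edited lines Rbpj differed by -0.93 (adjusted p = 2e-06). In ZebDKO against control limma called 0 of 15 genes of this list, where 7.50% of all genes were called higher and 7.28% lower. In the same fit 4 genes of the list had a higher and 8 a lower value with an unadjusted p-value below 0.05, beside the 27.5% and 53.2% of all genes. In Runx1KO the list had a median of -0.20, with 11 genes lower and 2 higher at that unadjusted threshold, where 41.5% of all genes were lower and 31.4% higher.

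Of the 18 trafficking and turnover genes, 16 passed the filter in each comparison. Neurl3, an E3 ubiquitin ligase of the Neuralized family, moved in opposite directions. It stood at 73.9, 68.4 and 85.5 TPM in control, at 16.1, 14.5 and 21.8 TPM in Runx1KO and at 188.0, 177.8 and 182.9 TPM in ZebDKO libraries, a fall of 2.07 (adjusted p = 1.8e-05) and a rise of 1.26 (adjusted p = 4.7e-06). Nrarp, a feedback inhibitor that Notch induces, rose by 1.28 in Runx1KO (adjusted p = 1.7e-05), from 4.0 to 5.2 TPM in controls to 11.8 to 13.4 TPM, and had a difference of 0.87 in ZebDKO (adjusted p = 5.3e-05). Mib1, the ligase that starts ligand endocytosis, fell by 1.07 in ZebDKO (adjusted p = 3.3e-05), and relative to the median gene by -0.88. Epn2, an epsin of the endocytic machinery, fell by 1.12 there (adjusted p = 2.2e-06), and relative to the median gene by -0.93. In Runx1KO the differences were -0.34 for Mib1 (adjusted p = 0.0051) and 0.08 for Epn2 (adjusted p = 0.14). The list medians were -0.06 in Runx1KO and -0.26 in ZebDKO, beside -0.06 and -0.18 for all genes.

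**Figure D4:**
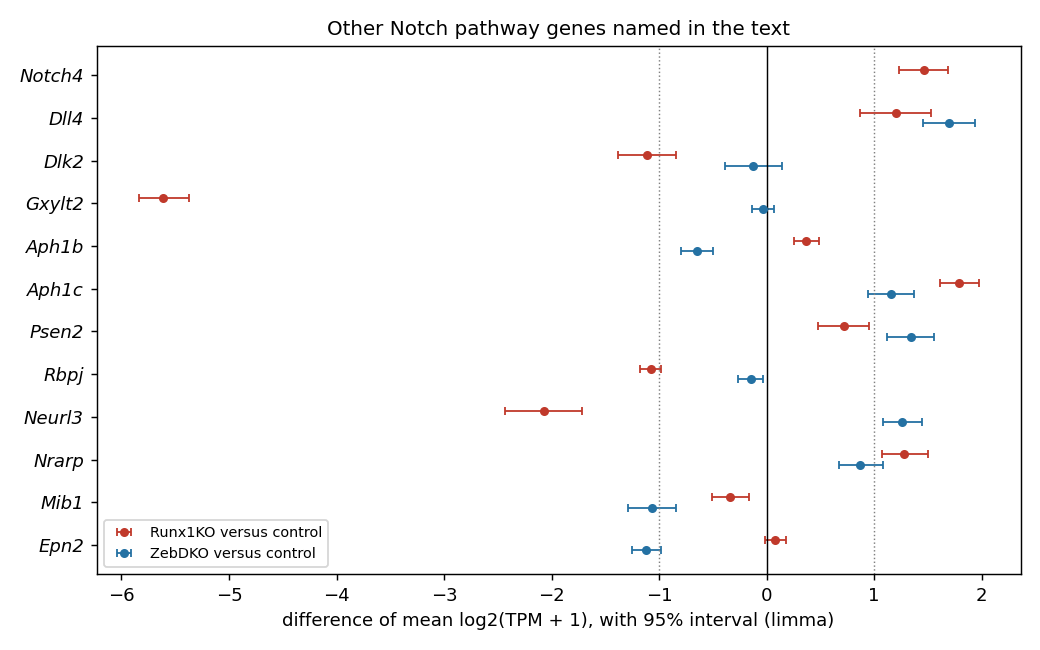
Difference of mean log2(TPM + 1) with its 95% interval from limma (horizontal axis) for 12 other pathway genes in Runx1KO and in ZebDKO against the same control libraries; dotted lines mark the 2-fold limit. Gxylt2 lies at -5.61 in Runx1KO and -0.03 in ZebDKO, and Neurl3 at -2.07 and 1.26; Notch4 was below the filter in ZebDKO.

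Genes with patterns most like the leading member of each role were sought over the 9 libraries among 13374 genes, by Pearson's r of log2(TPM + 1). The libraries fall into 3 genotypes, so that r mostly compares 3 group means. For Notch2 they were Abi1 and Cenpe (r = 0.990 each) and Notch1 (r = 0.989). For Dll1 they were Capsl (r = 0.998), 9330188P03Rik and Fcho1 (r = 0.997 each). Capsl ran from 0.2 to 1.2 TPM in control through 28.1 to 30.7 TPM in ZebDKO to 116.9 to 126.9 TPM in Runx1KO libraries. For Hes1 they were Jpt1 (r = 0.995), Padi2 (r = 0.994) and Maff (r = 0.993), and Maff stood at 24.7 to 29.6 TPM in control, 37.7 to 41.5 TPM in Runx1KO and 106.5 to 112.3 TPM in ZebDKO libraries.

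Chromatin around the members was read from deposited lists of ATAC-seq regions, which mark DNA accessible to a transposase, and of ChIP-seq peaks, which mark DNA bound by Runx1 or by its relative Runx2. Regions were sorted by the authors as closing, opening or stable in Runx1KO against control cells, and no list of this kind for ZebDKO cells was used here. A region was counted for a gene when its middle lay within 20 kb of an annotated transcription start on mm9, and each count stands beside the share of the 11245 genes tested that had a position, 86.1% of all tested. Closing regions lay near 1 of the 10 members, Notch1 (21.6% of positioned genes). Opening regions lay near 4 members, Notch3, Jag2, Hes1 and Heyl (31.5%), and stable regions near 9, all but Notch3 (95.4%). Runx1 peaks of control cells lay near Notch1, Notch2 and Hes1 (40.0%). Runx2 peaks lay near 8 members in control cells (71.2%) and near 5 in Runx1KO cells, namely Notch1, Notch2, Jag1, Dll1 and Hes1 (72.8%). The lists pool replicates, so these counts have no replicate error.

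Hes1 had 4 opening regions, all upstream, with middles at -18.6, -11.1, -8.7 and -3.8 kb from the nearest annotated start (upstream negative) and none overlapping a Runx1 peak. All 4 held a Zeb letter string (CAGGTA or CAGGTG on either strand), as did 9 of the 10 opening regions near members and 78.9% of all 9427 opening regions, so that the members do not stand apart. The region at -11.1 kb overlapped a Runx2 peak called in Runx1KO cells and none called in control cells. At -0.6 kb from the Hes1 start a Runx1 peak of 5.39-fold enrichment at chr16:30063730-30063986 lay in stable chromatin and overlapped Runx2 peaks of control and Runx1KO cells. The opening region nearest to Hes1 is shown because it holds the string 3 times in close succession, on the plus strand of mm9 at chr16:30060542-30060841, with every searched string in capitals.
Hes1 opening region: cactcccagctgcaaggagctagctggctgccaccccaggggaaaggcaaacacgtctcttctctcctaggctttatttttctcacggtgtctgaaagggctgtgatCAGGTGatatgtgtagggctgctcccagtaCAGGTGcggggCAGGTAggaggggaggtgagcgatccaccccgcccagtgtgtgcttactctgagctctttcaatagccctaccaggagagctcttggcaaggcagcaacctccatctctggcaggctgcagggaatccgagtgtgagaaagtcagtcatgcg

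Jag2 had 3 opening regions, at -9.6, -12.5 and -18.1 kb from its start, within the neighbouring annotations Nudt14 and Gm17274, and no Runx peak within 20 kb. The nearest of them was the only opening region near a member without a Zeb string. Its letters on the plus strand of mm9 at chr12:114177149-114177430 hold a Runx string (TGTGGT, read here as its reverse complement ACCACA) and an Rbpj string (TGGGAA, read here as TTCCCA), in capitals. Runx strings were found in 35.4% and Rbpj strings in 45.8% of all opening regions.
Jag2 opening region: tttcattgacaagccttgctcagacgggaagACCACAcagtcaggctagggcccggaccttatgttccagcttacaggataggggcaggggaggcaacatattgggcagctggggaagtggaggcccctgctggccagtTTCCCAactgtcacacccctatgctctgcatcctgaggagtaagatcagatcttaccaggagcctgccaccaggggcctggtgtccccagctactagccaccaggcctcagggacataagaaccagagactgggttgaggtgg

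Notch3, whose transcripts fell in Runx1KO cells, also had an opening region, 4.3 kb downstream of its start in an intron. Beyond the 20 kb limit a closing region lay 58.3 kb downstream of the start, outside the gene, and a further opening region lay at 63.7 kb. The closing region overlapped a Runx1 peak and Runx2 peaks of control and Runx1KO cells. The intronic region is shown because accessibility and transcript level moved in opposite directions there. The capitals in the 300 bases around its middle, on the plus strand of mm9 at chr17:32299403-32299702, mark 2 Zeb strings (as CACCTG) and 1 Hes/Hey string (CACGTG or CACGCG, here as CGCGTG), of which the latter was found in 15.2% of all opening regions.
Notch3 opening region: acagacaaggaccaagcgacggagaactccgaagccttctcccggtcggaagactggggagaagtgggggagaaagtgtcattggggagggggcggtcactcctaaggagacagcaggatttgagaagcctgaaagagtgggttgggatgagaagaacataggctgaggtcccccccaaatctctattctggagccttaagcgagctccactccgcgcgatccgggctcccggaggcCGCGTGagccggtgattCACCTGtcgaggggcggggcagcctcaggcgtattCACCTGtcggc

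Notch2 had Runx1 peaks on both sides of its start, in stable chromatin that Runx2 also bound in control and in Runx1KO cells. The stronger one, 6.27-fold enriched with a -log10 q of 14.7 and ranked 1216th of 10187 Runx1 peaks by enrichment, lay in an intron with its middle 0.6 kb past the start. It was the only Runx1 peak at the start of a member with a Runx string, which 33.1% of all Runx1 peaks hold, and its letters on the plus strand of mm9 at chr3:97817947-97818181 are shown with that string in capitals.
Notch2 Runx1 peak: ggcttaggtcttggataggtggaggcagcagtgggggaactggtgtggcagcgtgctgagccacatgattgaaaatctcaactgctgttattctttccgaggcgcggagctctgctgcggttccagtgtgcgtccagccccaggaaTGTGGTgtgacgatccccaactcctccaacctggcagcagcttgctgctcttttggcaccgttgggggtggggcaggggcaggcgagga

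Dll1, the member with the largest change in transcripts, had no opening, closing or Runx1 peak within 20 kb of a start. Stable regions covered its start, and a Runx2 peak at -19.4 kb, inside Fam120b, was called in control and in Runx1KO cells. The nearest opening region lay 42 kb away downstream. The promoter is shown because no other member changed as much: the 250 bases before the more upstream of its starts in RefSeq's promoter table (GRCm38.p6, minus strand, chr17:15376933-15377182) hold 1 Zeb and 1 Hes/Hey string, in capitals. Of all 32851 promoter windows in that table, which run 50 bases past the start, 29.5% hold a Zeb and 15.4% a Hes/Hey string. The table has windows for 7 of the 10 members, and none of their 8 windows held a Runx string (16.8% of all windows) or an AP-1 string (TGAGTCA or TGACTCA; 5.2%). An Rbpj string was present in the window of Hey2 and in no other of the 7 (25.6% of all windows).
Dll1 promoter: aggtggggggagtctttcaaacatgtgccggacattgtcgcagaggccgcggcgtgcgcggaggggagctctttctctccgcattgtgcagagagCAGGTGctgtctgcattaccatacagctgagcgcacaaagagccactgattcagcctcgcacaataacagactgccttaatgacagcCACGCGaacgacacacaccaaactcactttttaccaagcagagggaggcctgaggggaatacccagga

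Jag1 had stable regions at its start and 1 Runx2 peak, 1.1 kb past the start in a coding exon, in control and in Runx1KO cells. Heyl had an opening region in an intron close to an internal start and another at -19.3 kb, while its transcripts stayed at or below 0.3 TPM in every library. Hey1 and Hey2 each had a Runx2 peak at the start in control cells that was not in the list of Runx1KO cells. The Hey1 peak was weak, at 3.17-fold with a -log10 q of 1.82, and was lost when peaks needed a q-value under 0.01.

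Notch1 had closing regions and listed Runx1 peaks, at different places. Its 3 closing regions lay between 26335686 and 26339484 on chromosome 2, in the body of the gene 20.3 to 23.4 kb past the start of the coding transcript, and none overlapped a Runx1 or Runx2 peak. They were counted above through starts of shorter annotated transcripts inside the gene. At the start of that transcript, chr2:26359000-26359192 was a Runx1 peak of 13.8-fold enrichment (-log10 q of 44.7), the 2nd highest enrichment of the 10187 Runx1 peaks, in stable chromatin. Of its bases 31.6% were coding exon, and its middle lay in a non-coding part of an exon, so that it too lay largely over an exon. Runx2 peaks covered it in control cells at 13.0-fold and in Runx1KO cells at 6.17-fold, and none of the searched strings was within the Runx1 peak.

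The other 4 regions listed as Runx1 peaks within Notch1 followed the coding exons, which was noticed after the values were seen. They lay in the 3' part of the gene, 38.4 to 43.6 kb past the start, and between 93.8% and 100% of the bases of each were coding exon. The widest ran from 26315072 to 26316482, inside a coding exon annotated from 26315054 to 26316496, and another ran from 26319264 to 26319509, inside one from 26319230 to 26319525. Runx2 lists held 5 such peaks in control cells, with 91.2% to 100% of bases coding, and 5 in Runx1KO cells, each at 100%. Peaks with at least 80% of their bases in coding exons were 0.962% of Runx1 peaks and 1.57% and 1.6% of Runx2 peaks in control and Runx1KO cells. No gene other than Notch1 had more than 2 of them in any of the 3 lists. None of the 4 Runx1 peaks overlapped a region of the ATAC-seq lists. By the study's methods, peaks that overlapped those called for Runx1 in Runx1KO cells had been removed as background. The peak names in all 3 lists carry the words Notch-Off, which the sources used here do not explain. Whether the reads under these peaks come from the Notch1 locus or from a Notch1 copy without introns in the cells or the material was not tested, so that these peaks are not read here as Runx binding at Notch1. The same doubt was not tested for the peak at the start, which is in stable chromatin, or for the Notch1 TPM, which does not show whether reads come from all exons.

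**Figure D5:**
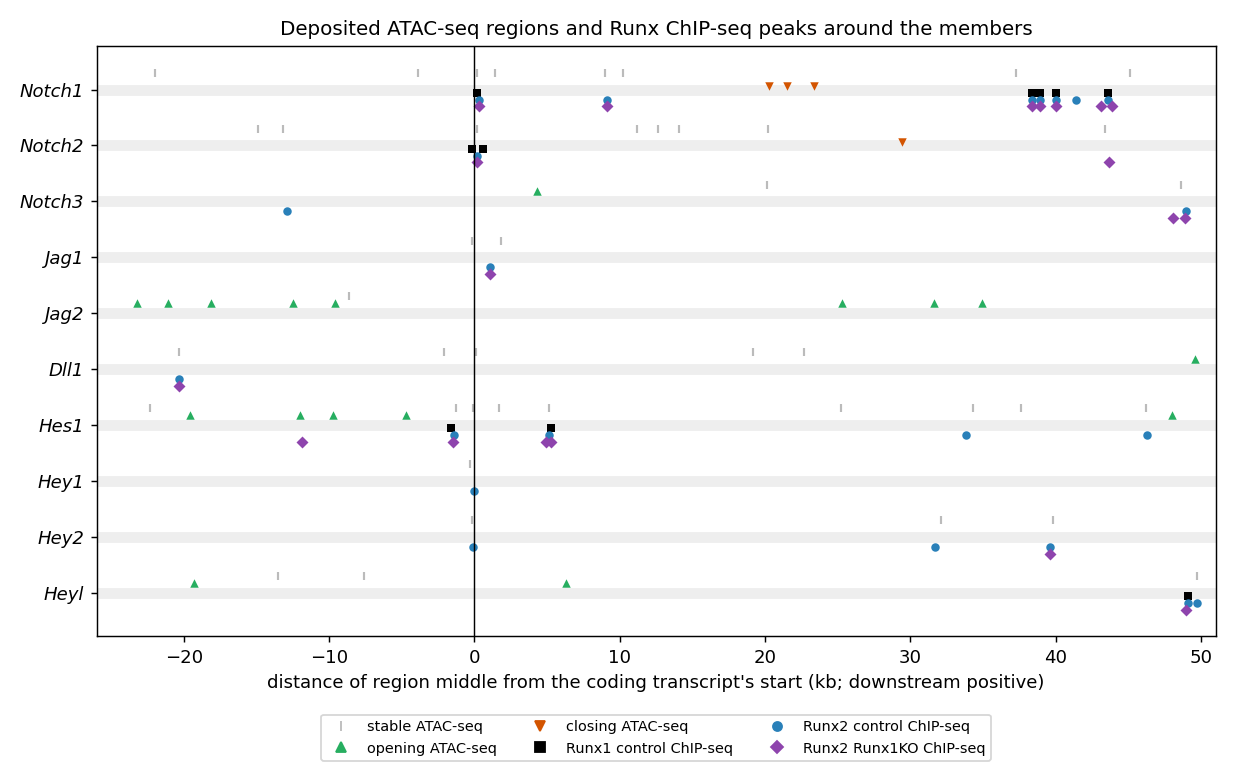
Middles of deposited ATAC-seq regions (stable, opening, closing) and Runx ChIP-seq peaks for each member, by distance in kb from the start of its coding transcript (horizontal axis, downstream positive). Notch1 shows the 3 closing regions at 20.3 to 23.4 kb and the Runx peaks over its coding exons from 38.4 kb, and Hes1 and Jag2 show opening regions upstream.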

How the data were processed

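The members and the gene, marker and motif lists were chosen with earlier results of these data known. RNA-seq of 9 libraries, 3 replicates per genotype, was used. Reads were mapped to mm9 and summarised by the authors, who deposited TPM per gene, scaled to gene length and library total. A 9-library table gave the main results, and a table of 6 of these libraries, normalized apart from it, was an alternative in which 4 rows with duplicated names were left out. There were 0 columns of per-sample values left unused. ChIP-seq peaks were called by the authors with MACS2 on combined replicates, and the deposited values are a fold enrichment and a -log10 q-value for each peak. The study's methods say that peaks overlapping those of the Runx1 ChIP-seq in Runx1KO cells were removed. ATAC-seq regions present in replicates were sorted by the authors into closing, opening and stable lists, in which further columns hold the authors' own comparison and were not used. The submitters' processing notes also name FastQC and Trim Galore.

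Differences of log2(TPM + 1) were tested with limma 3.58.1 in R 4.3.3, with a mean-variance trend, and a gene was tested if 3 or more of the 6 libraries compared reached 1 TPM. P-values are two-sided and adjusted by the Benjamini-Hochberg method over all genes tested, and every adjusted p comes from this limma fit. A gene was called at over 2-fold and an adjusted p below 0.05. With 3 against 3 libraries an exact permutation test cannot go below p = 0.1 and was not used. The study describes biological triplicates, and where the replicates of a genotype share a clone, p-values measure the spread between cultures of that clone. Marker genes counted as detected reached 1 TPM in 3 or more of the 9 libraries. Genes were named by rule: the members, the targeted genes, Rbpj, up to 3 called genes per direction of each pathway list, and the 3 genes most correlated with the leading member of each role. For the ligands this was Dll1 by mean TPM over the 9 libraries. Peaks were joined to GENCODE vM1 starts with Python 3.11.15, and letter strings were searched on both strands. Scripts were tested on simulated data. The study's methods give only a lower bound on the reads per sample, and TPM keeps no read counts, so that no counting interval was computed.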

Additional observations from a re-analysis of the deposited data

Results flagged for a closer look

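For 6 genes the change from control differed between the edited lines by the direct limma fit of Runx1KO against ZebDKO libraries, with a difference past the 2-fold limit. Among the members these were Dll1, with a difference of 1.13 in log2(TPM + 1) (adjusted p = 2.3e-06, higher in 3 of 3 Runx1KO libraries), and Hes1, with a difference of -1 (adjusted p = 6.9e-06, lower in 3 of 3). Among the other pathway genes, Gxylt2 differed by -5.57 (adjusted p = 2.5e-08) and Neurl3 by -3.34 (adjusted p = 5.6e-07). Epn2 differed by 1.19 (adjusted p = 1.1e-06) and Aph1b by 1.02 (adjusted p = 2e-06), the latter uncertain because of reads shared with Aph1c. Relative to the median gene, at 0.15, the differences were 0.98 for Dll1, -1.15 for Hes1, 1.04 for Epn2 and 0.87 for Aph1b. Those of Dll1 and Aph1b were then inside the 2-fold limit. After quantile normalization Dll1 at 0.90 and Hes1 at -0.93 were not called. Of all 13071 genes tested, 9.20% were called higher and 6.59% lower in Runx1KO cells. In each of the 4 genes that are not members the 3 Runx1KO libraries also lay on 1 side of the 3 ZebDKO libraries.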

How the results depend on the processing

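Of the members' differences, 300 values under an alternative kept their direction and their call, 25 crossed to being called, many through the lower fold limits themselves, 7 lost the call and 1 changed sign. The last was Notch2 in ZebDKO against control, at 0.01 (adjusted p = 0.85) after median-ratio scaling, which moves the median gene to 0. In Runx1KO against control, 3 members were called, 1 with a minimum of 5 TPM, 7 with a fold limit of 1.3 and 7 with none, and 2 to 3 with 1 replicate left out. Jag1 was also called with a pseudocount of 0.1 (1.15) or 0.5 (1.07) and after median-ratio scaling (1.04). In ZebDKO against control, 4 were called and 3 to 4 with 1 replicate left out, and Notch3 was also called with a pseudocount of 0.1 (-1.5) or 0.5 (-1.19). Between the edited lines 2 were called, 1 after median-ratio scaling, 0 after quantile normalization, 5 with no fold limit, and 1 to 2 with 1 replicate left out. After quantile normalization limma gave 0.90 for Dll1 (adjusted p = 8.7e-06) and -0.93 for Hes1 (adjusted p = 1.9e-05).

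Over all genes, 1700, 1917 and 2064 were called in the 3 comparisons. A fold limit of 1.3 gave 4857, 6746 and 6780, and no fold limit 9216, 10305 and 10459. With 1 replicate left out the counts were 1287 to 1419, 1560 to 1782 and 1721 to 1856. Same-numbered replicates deviated from their group means with correlations of -0.05 to 0.04, so the numbers do not pair the libraries. With the replicate number as a replicate block, 3, 4 and 2 members and 1709, 1923 and 2071 genes were called.

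Closing regions lay near 1 member within 20 kb, 0 within 5 kb, 4 within 100 kb and 2 within the gene body plus 5 kb. Of positioned genes the shares were 21.6%, 8.55%, 58.2% and 19.2% in that order. Within 100 kb the counts were 8 for opening regions (4 within 20 kb), 6 for Runx1 peaks (3) and 9 for Runx2 peaks of Runx1KO cells (5). The shares of positioned genes within 100 kb were 70.3%, 75.6% and 92%, so that the counts within 100 kb do not set the members apart. Opening regions lay near 3 members within 5 kb, beside 12.4% of positioned genes. Within the gene body plus 5 kb they lay near 5 members, beside 22.4%. Whether the members differ from other genes at these limits was not tested. Alternatives on the fold change of ATAC-seq regions were not run, because those columns hold the authors' own comparison. TPM to 1 decimal limits what can be read from Hey1, Hey2, Heyl and Notch3.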

Other observations

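With no filter on low values, limma gave Hey2 a difference of -0.53 in log2(TPM + 1) in Runx1KO against control (SE 0.15, adjusted p = 0.027), lower in 3 of 3 libraries without overlap. Its nearest values, 0.5 TPM in control and 0.4 TPM in Runx1KO, lay a step of the deposited values apart, so that no order is read from them. In this fit 9955 of 18327 genes had an adjusted p-value below 0.05. In ZebDKO the difference of Hey2 was -0.23 (adjusted p = 0.31). Hey1 had differences of -0.26 (adjusted p = 0.14) and -0.22 (adjusted p = 0.14), and Heyl had 0.21 (adjusted p = 0.058) and 0.09 (adjusted p = 0.15). Levels of members in the 6-library table were lower than in the 9-library table for the same libraries: the control mean of Notch1 was 16.3 TPM there and 32.9 TPM in the 9-library table, that of Hes1 172 and 305 TPM, and the Runx1KO mean of Dll1 10.1 and 20.5 TPM. In introns of Notch2, beyond the 20 kb limit, 3 closing ATAC-seq regions lay 29.4, 93.3 and 97.3 kb past the start. The first overlapped no Runx peak, the second Runx1 and Runx2 peaks of control cells, and the last a Runx2 peak of control cells. An opening region, also in an intron, lay 67.3 kb past the start of Notch2 and overlapped no Runx peak.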
